A study of Homo sapiens with 36 samples.

Results

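The 9 genes described here link 3 parts of the handling of damaged proteins. They are *UBB*, which encodes ubiquitin, the zinc finger genes *ZFAND2A*, *ZFAND2B* and *ZFAND5*, the autophagy receptor genes *SQSTM1* and *NBR1*, the ATG8 family genes *GABARAPL1* and *MAP1LC3B*, and *VCP*, which encodes an unfolding ATPase. They were taken by name, with earlier results of these data known but with no threshold on measured values. Each was found once among the 61587 genes of the count table through its Ensembl identifier. All 9 passed the filter that left 22486 genes to be tested. Messenger RNA was sequenced from HEK293T cells, a line derived from human embryonic kidney, made deficient in *TXNL1* by knockout (KO). TXNL1 is a thioredoxin-like protein that binds the proteasome. Every library, controls included, comes from the *TXNL1* KO background, which the study's methods describe as grown out from single sorted cells, and no parental cells are among the samples. The KO cells carried an empty vector or stably expressed one of 3 forms of TXNL1 from a lentivirus. These were WT TXNL1, the D162R R234D mutant (TXNL1-DR-RD in the labels) that is deficient in proteasome binding, and the SxxS mutant, which lacks the cysteines of the thioredoxin motif. Each of the 4 lines was left untreated (DMSO in the labels) or exposed for 6 h to arsenite at 100 µM or to hydrogen peroxide at 600 µM, with 3 replicates in each of the 12 groups. Doses and exposure are those of the study's methods. The methods describe treatment in triplicate in 6-well plates. Whether the replicates came from separately grown cultures is not stated, so p-values measure the spread among these 36 libraries.

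Ubiquitin is a small protein that is attached to other proteins, often as a chain, and so marks them for the proteasome or for autophagy. *UBB* encodes it as head-to-tail repeats that are cut into single units. ZFAND proteins carry AN1-type zinc fingers, and ZFAND2A was first described as a protein induced by arsenite that associates with the proteasome. VCP, also called p97, extracts ubiquitinated proteins from membranes and complexes. Receptors such as SQSTM1 (p62) and NBR1 bind ubiquitin on one side and ATG8 family proteins on the growing autophagosome on the other, and so carry aggregates to the lysosome.

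Promoter sequence was examined because most of these genes moved together under arsenite. The RefSeq windows (GRCh38.p14) span 250 bases before to 50 bases after a transcription start, and 15 windows were found for the 9 genes. All windows of *UBB*, *ZFAND2A*, *ZFAND2B*, *GABARAPL1* and *MAP1LC3B* lie inside the gene spans given below. The outermost annotated starts of these genes were therefore not searched. Both strands were searched for 5 motifs. A heat shock element of 2 units (GAANNTTC or TTCNNGAA) was found in the window of 1 gene, *ZFAND2A*, whereas 13.5% of all 35116 windows and 16.2% of the 27305 genes in the table hold one. The heat shock element of 3 units, which adds a further inverted unit at the same spacing and so contains the shorter one, was found for 0 of the 9 genes, against 0.608% of genes and 0.49% of windows. The core of the antioxidant response element (TGACNNNGC) occurred for 5 genes, namely *UBB*, *ZFAND2A*, *ZFAND5*, *MAP1LC3B* and *VCP*, against 16.1% of genes and 13.3% of windows. The E box CACGTG (8.77% of genes, 7.26% of windows) and the C/EBP-ATF element TGATGNAA (4.46% of genes, 3.62% of windows) occurred for 0 of the 9. These are matches of letters, and no binding was measured. The 250 bases before the start are shown for the 3 genes with the largest changes under arsenite, with the matches in capitals. Positions are in bases from the start, negative before it. In *ZFAND2A* the antioxidant element begins at -212 and the heat shock element at -171. In *ZFAND5* the antioxidant element begins at -146 and, on the other strand, at -114. Both matches lie in the window shown, and the windows of its other starts held none of the motifs. In *GABARAPL1* none of the motifs was found.
*ZFAND2A*, chr7:1160197-1160446, minus strand: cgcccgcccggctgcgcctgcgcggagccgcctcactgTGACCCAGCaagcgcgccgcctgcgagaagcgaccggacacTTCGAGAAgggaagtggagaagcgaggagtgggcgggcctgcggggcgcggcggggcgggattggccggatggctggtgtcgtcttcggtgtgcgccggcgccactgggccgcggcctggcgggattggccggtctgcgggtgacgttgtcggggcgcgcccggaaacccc
*ZFAND5*, chr9:72365209-72365458, minus strand: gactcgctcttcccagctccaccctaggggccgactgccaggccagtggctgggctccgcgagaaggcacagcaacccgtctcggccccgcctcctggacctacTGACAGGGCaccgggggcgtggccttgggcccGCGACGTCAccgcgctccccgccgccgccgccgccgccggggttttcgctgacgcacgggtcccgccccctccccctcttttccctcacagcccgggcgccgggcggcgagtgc
*GABARAPL1*, chr12:10212627-10212876, plus strand: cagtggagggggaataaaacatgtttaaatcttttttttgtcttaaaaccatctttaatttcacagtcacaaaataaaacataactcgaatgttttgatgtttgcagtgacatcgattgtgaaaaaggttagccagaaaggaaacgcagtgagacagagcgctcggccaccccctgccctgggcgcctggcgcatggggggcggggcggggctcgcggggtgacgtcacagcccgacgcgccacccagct

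The libraries held 42072410 to 174119002 counts, with a median of 66016833. RNA of *TXNL1* was still present in the vector line (30.6 ± 1.77 CPM, SD, n = 3, untreated) and higher in the complemented lines, with log2 fold changes of 0.83 (WT), 1.04 (D162R R234D) and 0.80 (SxxS) in untreated cells. Of the genes looked up as marks of HEK293-type cells, *VIM*, *KRT18* and *KRT8* were expressed, *NEFL* reached 3.12 CPM, and *NEFM* (at most 0.296 CPM) and *PAX2* (at most 0.838 CPM) were near 0. CPM, counts per 1e+06 after scaling between libraries, is a relative level, so that more RNA of a gene and less of the other RNA cannot be told apart. Among marks of other cells, *PTPRC*, *ALB* and *PECAM1* stayed at or below 0.299 CPM, while *COL1A1* reached 22.3 CPM, *EPCAM* 5.77 CPM and *COL1A2* 4.84 CPM. A pair of WT libraries stood apart from their replicates. The SD of log2 CPM around the group median over 12043 genes was 0.53 for replicate 1 of WT cells with arsenite and 0.61 for replicate 2 of WT cells with hydrogen peroxide. The other 34 libraries had 0.05 to 0.17. In both, *UBB*, *ZFAND2A*, *ZFAND2B* and *SQSTM1* were high and *ZFAND5* and *NBR1* low. *ZFAND2B* lay 0.92 and 0.98 log2 units above the mean of the other 2 replicates, and *NBR1* 0.50 and 0.55 below it (-0.50 and -0.55). Both libraries were kept, and values without them are given where they matter.

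Arsenite raised the RNA of all 9 genes. Averaged over the 4 lines (12 libraries against 12), each was called higher by edgeR (quasi-likelihood test, Benjamini-Hochberg adjusted p below 0.05), which called 37.4% of all tested genes higher and 68.8% in either direction. The size of the change ran from a log2 fold change of 0.14 for *NBR1* to 3.91 for *ZFAND2A*, with a median of 0.66, against a median of 0.06 over all tested genes. In 8 of the 9 genes, every arsenite library lay above every untreated library, a separation seen in 13.4% of tested genes. *NBR1* was the exception. Hydrogen peroxide changed fewer of them. *GABARAPL1*, *SQSTM1* and *MAP1LC3B* were called higher (3 of 9, against 6.78% of all tested genes called higher and 12.1% in either direction). Both treatments were set against the same untreated libraries, so the comparisons are not independent. The 9 genes were chosen with earlier results of these data known, so their shares beside all tested genes are a description.

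**Figure D1:**
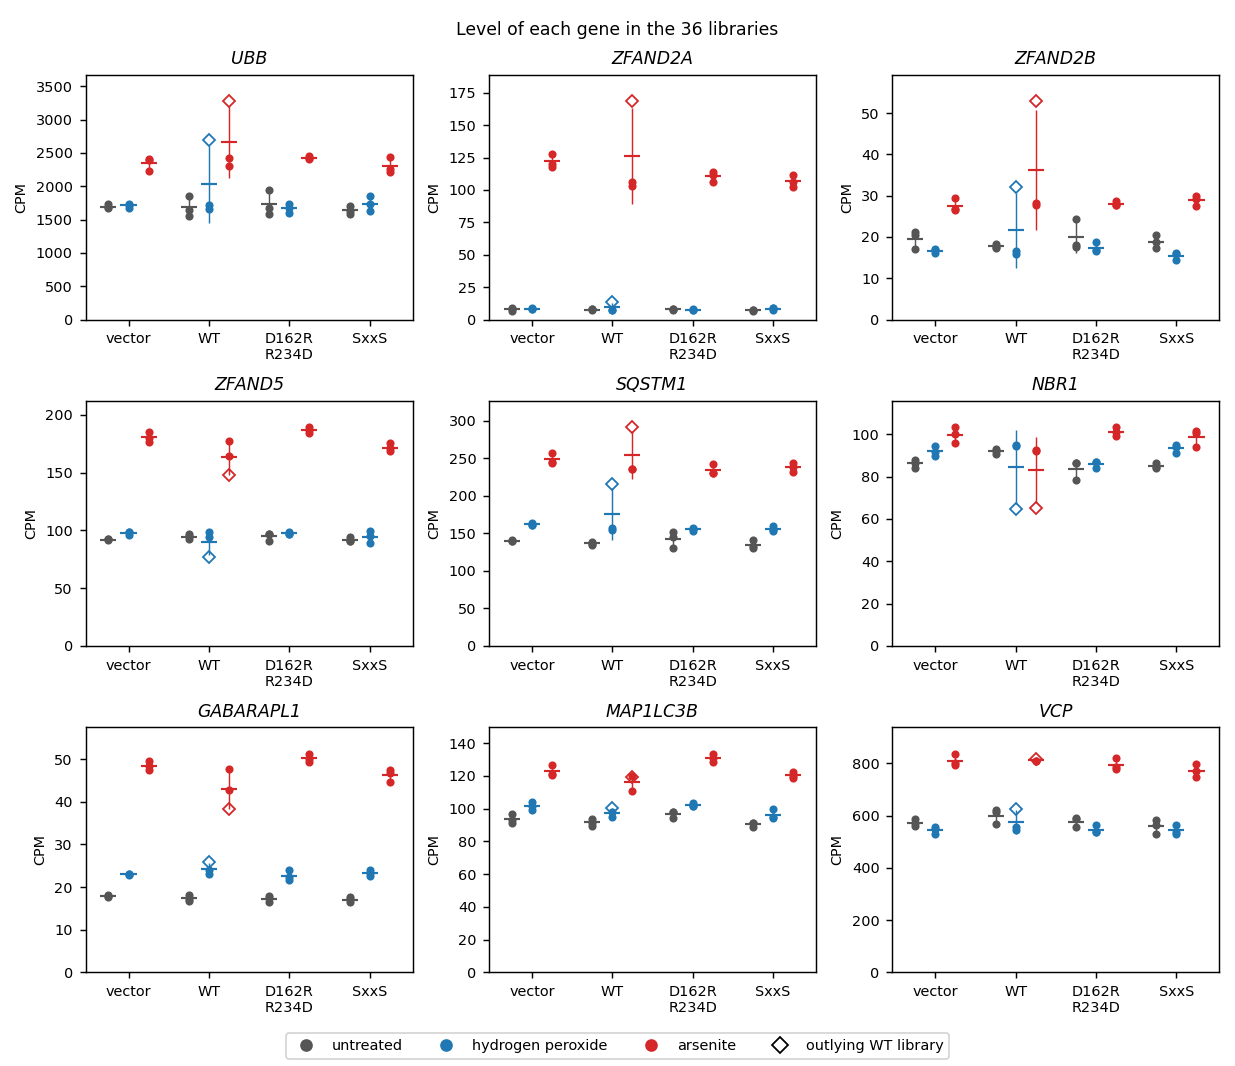
Level of each of the 9 genes in CPM (linear axes from 0) in each of the 36 libraries, by line and treatment. Points are libraries, horizontal bars are means of 3 replicates, vertical lines are SDs and open diamonds are the WT libraries that stand apart. Arsenite libraries lie above all untreated ones in every panel except that of *NBR1*.

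*UBB* (ENSG00000170315, chromosome 17 of GRCh38 from 16380798 to 16382745, plus strand) is a polyubiquitin gene. In the vector line its level was 1733, 1671 and 1681 CPM untreated and 2385, 2232 and 2407 CPM with arsenite. Over all lines, untreated libraries ran from 1549 to 1948 CPM (median 1674) and arsenite libraries from 2219 to 3281 CPM (median 2409). The groups did not overlap, and the highest value was that of WT arsenite replicate 1. The averaged log2 fold change was 0.53 (standard error 0.06, 1.44-fold, adjusted p = 1.45e-08, edgeR). By line it was 0.47 (vector), 0.67 (WT), 0.48 (D162R R234D) and 0.49 (SxxS), and without both outlying libraries the average was 0.46. Of the exon bases of *UBB*, 29.4% are shared with a gene on the opposite strand, ENSG00000265401, so some counts may belong to either gene if strand was not used in counting.

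*ZFAND2A* (ENSG00000178381, chromosome 7 from 1152071 to 1160759, minus strand) encodes the arsenite-inducible zinc finger protein, also known as AIRAP. In untreated vector cells it was low, at 6.80, 8.74 and 8.22 CPM. With arsenite, the 3 replicates of this line reached 128.0, 118.0 and 120.4 CPM. The other lines gave 103.1 to 168.9 CPM (WT), 106.4 to 114.1 CPM (D162R R234D) and 102.5 to 111.4 CPM (SxxS). All of these libraries but WT replicate 1 (168.9 CPM) lay below those of vector cells. No untreated library of any line exceeded 8.74 CPM, and the lowest arsenite library had 102.5 CPM. Averaged over lines the rise was 15.1-fold (log2 fold change 3.91, standard error 0.09, adjusted p = 2.22e-25, edgeR). It was the 20th largest rise among the 22486 tested genes. Within lines the value was 3.95, 4.04, 3.81 and 3.86 in vector, WT, D162R R234D and SxxS cells. Without both outlying libraries the average was 3.83.

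*ZFAND2B* (ENSG00000158552, chromosome 2 from 219195237 to 219209651, plus strand) encodes a related, membrane-associated protein, known as AIRAPL. It moved far less than *ZFAND2A*. Untreated libraries held 17.1 to 24.4 CPM (median 18.2) and arsenite libraries 26.5 to 53.0 CPM (median 28.0). The groups stayed apart by a small margin, and the highest arsenite value, 53.0 CPM, was again WT replicate 1, whose fellow replicates had 28.1 and 27.7 CPM. The averaged log2 fold change was 0.66 (standard error 0.10, adjusted p = 9.43e-07, edgeR) and 0.54 without both outlying libraries. Within the vector and D162R R234D lines the change was 0.50 and 0.49, with adjusted p-values of 0.0435 and 0.0443 that rose above 0.05 under several alternatives. Both calls held without both outlying libraries (0.47, adjusted p = 9.09e-06 in vector, and 0.48, adjusted p = 6.59e-06 in D162R R234D cells, edgeR). In WT cells it was 1.03, and 0.62 without both outlying libraries.

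*ZFAND5* (ENSG00000107372, chromosome 9 from 72351413 to 72365235, minus strand) encodes a zinc finger protein that stimulates proteasomes. Arsenite brought it close to 2 times its untreated level. Vector cells had 92.9, 92.1 and 91.4 CPM untreated and 180.0, 185.4 and 176.8 CPM with arsenite. Over all lines the untreated range was 90.6 to 97.1 CPM and the arsenite range 147.7 to 189.3 CPM, with the lowest arsenite value in WT replicate 1. Its rise averaged over lines was 0.91 on the log2 scale (standard error 0.03, 1.88-fold, adjusted p = 1.85e-20, edgeR).

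*SQSTM1* (ENSG00000161011, chromosome 5 from 179806398 to 179838078, plus strand) encodes the receptor p62, which gathers ubiquitinated proteins into condensates. In vector cells it was measured at 139.4, 141.6 and 140.1 CPM untreated, at 160.7, 164.1 and 161.6 CPM with hydrogen peroxide and at 257.2, 244.3 and 245.5 CPM with arsenite. The 3 treatments separated completely in that line. Across all lines, medians were 139.1, 157.2 and 240.0 CPM, and the highest untreated library (152.0 CPM) lay just under the lowest peroxide library (153.0 CPM). The averaged log2 fold change with arsenite was 0.82 (standard error 0.04, 1.76-fold, adjusted p = 1.56e-16, edgeR). With hydrogen peroxide it was 0.23 (standard error 0.04, adjusted p = 0.00038). Exons of *SQSTM1* share 22.4% of their bases with *MGAT4B* and *MRNIP* on the opposite strand.

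*NBR1* (ENSG00000188554, chromosome 17 from 43170481 to 43211689, plus strand) encodes a second ubiquitin-binding receptor, and it changed least. Untreated libraries held 78.5 to 92.9 CPM (median 86.5) and arsenite libraries 65.3 to 103.4 CPM (median 99.6). Of the 12 arsenite libraries, 9 lay above the highest untreated one and 1, WT replicate 1, lay below the lowest. On average over lines the log2 fold change was 0.14 (standard error 0.05, adjusted p = 0.0173, edgeR). By line, D162R R234D cells passed the threshold (0.27, adjusted p = 0.0299), whereas 0.21 in vector and 0.22 in SxxS cells did not (adjusted p of 0.0958 and 0.0875). These were 0.19 and 0.20 without both outlying libraries, and both then passed (adjusted p of 3.13e-05 and 2.14e-05, edgeR). In WT cells the value was -0.14, and it became 0.0040 without arsenite replicate 1 and -0.02 without both outlying libraries. Without both outlying libraries the average was 0.16 (adjusted p = 3.84e-09, edgeR).

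*GABARAPL1* (ENSG00000139112, chromosome 12 from 10212458 to 10223128, plus strand) encodes one of the ATG8 proteins, which are coupled to lipid on the autophagosome membrane. It rose with both oxidants and in every line. Vector cells had 18.02, 17.88 and 17.69 CPM untreated, 23.0, 22.8 and 23.2 CPM with hydrogen peroxide and 48.3, 47.4 and 49.5 CPM with arsenite. Untreated libraries of all lines stayed within 16.5 to 18.2 CPM, peroxide libraries within 21.7 to 25.9 CPM and arsenite libraries within 38.3 to 51.3 CPM. The 3 ranges did not overlap. On average over lines the log2 fold change was 1.43 with arsenite (standard error 0.03, 2.69-fold, adjusted p = 1.36e-25) and 0.42 with hydrogen peroxide (standard error 0.03, 1.34-fold, adjusted p = 1.10e-10), both from edgeR.

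*MAP1LC3B* (ENSG00000140941, chromosome 16 from 87383953 to 87404779, plus strand) encodes LC3B, the ATG8 protein most often used to follow autophagosomes. Vector cells had 96.5, 93.2 and 91.2 CPM untreated and 121.2, 126.7 and 120.9 CPM with arsenite. Across lines the arsenite range (110.6 to 133.6 CPM) lay above the untreated range (89.0 to 98.2 CPM). With arsenite the averaged log2 fold change was 0.40 (standard error 0.02, 1.32-fold, adjusted p = 4.02e-16, edgeR). With hydrogen peroxide it was 0.09 (standard error 0.02, adjusted p = 0.00325), and 8 of 12 peroxide libraries lay above the highest untreated one. The call with peroxide was lost without a filter on low counts (adjusted p = 0.072). A nearly identical gene, *MAP1LC3B2*, held 123 to 666 counts per library against 3952 to 18260 for *MAP1LC3B*, and reads of one may be counted on the other.

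*VCP* (ENSG00000165280, chromosome 9 from 35053928 to 35072668, minus strand) was the most abundant of the genes per length after *UBB*. Its vector libraries held 559.5, 573.2 and 588.2 CPM untreated and 793.9, 837.6 and 800.4 CPM with arsenite. No line departed from this, since all untreated libraries lay between 531.1 and 620.4 CPM and all arsenite libraries between 747.9 and 837.6 CPM. The rise averaged over lines was 0.47 on the log2 scale (standard error 0.03, 1.38-fold, adjusted p = 1.27e-15, edgeR). It varied little between lines, at 0.50, 0.44, 0.46 and 0.47 in vector, WT, D162R R234D and SxxS cells.

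**Figure D2:**
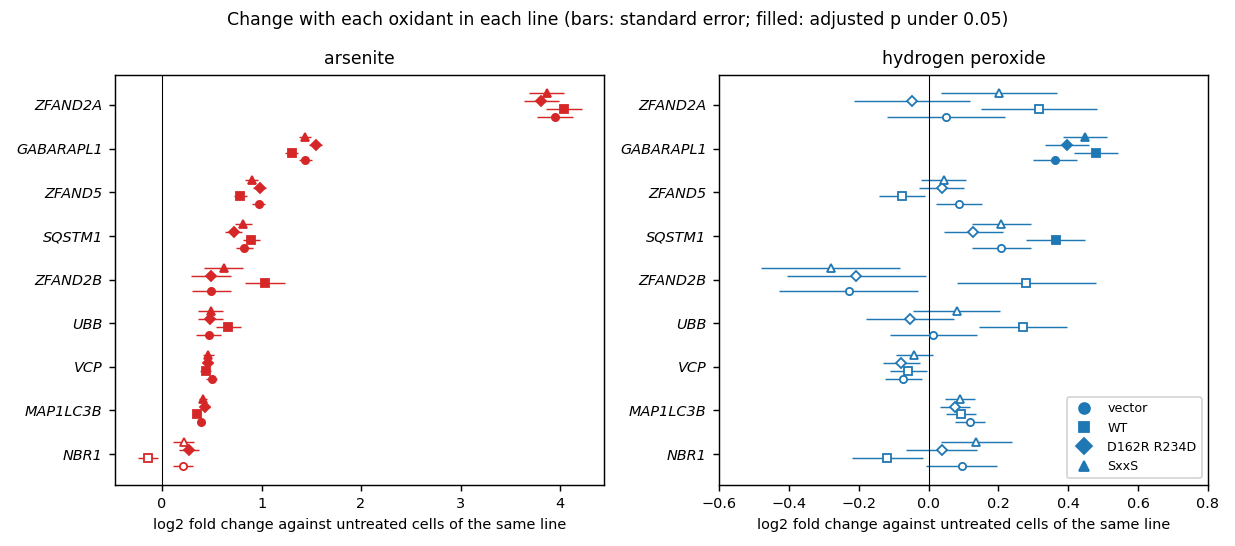
Log2 fold change against untreated cells of the same line (horizontal axis) for each gene with arsenite (left) and hydrogen peroxide (right), by line. Bars are standard errors, and filled symbols mark an adjusted p under 0.05. With arsenite all values but that of *NBR1* in WT cells are above 0, and *ZFAND2A* stands at 3.81 to 4.04. The axes differ in range.

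Counted per line, arsenite raised 8, 8, 9 and 8 of the 9 genes in the vector, WT, D162R R234D and SxxS lines, where 22.1%, 28.7%, 22.5% and 22.1% of all tested genes were called higher. The gene that was not called in 3 lines was *NBR1*, and without both outlying libraries it was not called in WT cells alone. Hydrogen peroxide raised 1, 2, 1 and 1 of the 9 in the same order, against 0.712%, 5.8%, 0.503% and 0.409% of all tested genes. *GABARAPL1* was called in each line, with log2 fold changes of 0.36, 0.48, 0.40 and 0.45. *SQSTM1* was called in WT cells (0.36), while its values of 0.21 (vector), 0.13 (D162R R234D) and 0.21 (SxxS) did not pass. Its value in WT cells was 0.19 without both outlying libraries, and it was then called in each line (edgeR adjusted p from 0.00061 in SxxS to 0.0347 in D162R R234D cells). In either direction, arsenite called 9763, 12060, 9898 and 9803 of the 22486 tested genes with all libraries, in the same order of lines. Without both outlying libraries it called 12676, 11902, 12793 and 12822 (56.4%, 52.9%, 56.9% and 57.0%). Hydrogen peroxide called 303, 1813, 231 and 229 in either direction with all libraries. Without both outlying libraries it called 2219, 2020, 2328 and 1475 (9.87%, 8.98%, 10.4% and 6.56%), so the larger WT shares did not persist.

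The remaining genes showed small and mixed values with hydrogen peroxide. *ZFAND2A*, which arsenite raised most, had 7.83, 8.70 and 8.06 CPM in peroxide-treated vector cells. Its averaged log2 fold change was 0.13 (standard error 0.08, adjusted p = 0.378, edgeR), and 0.04 without both outlying libraries. *UBB* had 0.08 (adjusted p = 0.509), *ZFAND5* 0.02 (adjusted p = 0.755), *NBR1* 0.04 (adjusted p = 0.736) and *VCP* -0.06 (adjusted p = 0.131). *ZFAND2B* had -0.11 (adjusted p = 0.573). For *ZFAND2B*, 10 of 12 peroxide libraries lay below the lowest untreated one (17.1 CPM), while WT replicate 2, a library that stands apart, held 32.1 CPM. Without both outlying libraries, 6 of the 9 genes were called, against 28.6% of all tested genes. *ZFAND2B* then fell by 0.22 on the log2 scale (-0.22, adjusted p = 0.00032) and *VCP* by 0.08 (-0.08, adjusted p = 0.00139). *NBR1* rose by 0.07 (adjusted p = 0.0043), and *GABARAPL1*, *SQSTM1* and *MAP1LC3B* were called higher as before. For *SQSTM1* and *GABARAPL1*, all 12 peroxide libraries lay above all 12 untreated libraries, which held for 0.551% of tested genes.

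Set directly against hydrogen peroxide, arsenite gave higher RNA of 8 of the 9 genes, where 37.3% of all tested genes were called higher and 68.7% in either direction. The log2 difference was 3.79 for *ZFAND2A*, 1.01 for *GABARAPL1*, 0.89 for *ZFAND5*, 0.77 for *ZFAND2B*, 0.59 for *SQSTM1*, 0.53 for *VCP*, 0.45 for *UBB* and 0.30 for *MAP1LC3B*. *NBR1* did not pass (0.10, standard error 0.05, adjusted p = 0.0778, edgeR), although it did without both outlying libraries (0.08, adjusted p = 0.00028). The doses of the oxidants differ, so the size of these differences belongs to these exposures.

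Whether the TXNL1 form altered these genes was tested in 3 ways. In untreated cells, 0 of the 9 differed between the vector line and the WT, D162R R234D or SxxS line in edgeR's test, with 0 at an unadjusted p under 0.05 and 0 by DESeq2, while 0.196%, 0.0267% and 0.0178% of all tested genes were called. The log2 differences ran from -0.13 (*ZFAND2B*, WT) to 0.09 (*NBR1*, WT). The widest 95% interval among them, for *ZFAND2B* in WT cells, reached from -0.54 to 0.27. This fit left differences within that range open for this gene. Its standard error was 0.20, and 0.09 without both outlying libraries, which are in neither group. In that fit 2.99%, 0.0756% and 0.142% of all tested genes were called, in the same order of lines. *NBR1* in WT cells then had an unadjusted p of 0.0188 (0.09, adjusted p = 0.200, edgeR).

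In arsenite-treated cells, 0 of the 9 were called for each of the 3 lines by edgeR and by DESeq2, where edgeR called 1.33% (WT), 0.0222% (D162R R234D) and 0.0267% (SxxS) of all tested genes. An unadjusted p under 0.05 was found for 4 genes in WT cells, for *MAP1LC3B* alone in D162R R234D cells (0.09) and for 0 in SxxS cells. The 4 in WT cells were *ZFAND2B* (0.40), *ZFAND5* (-0.15), *NBR1* (-0.26) and *GABARAPL1* (-0.17), with adjusted p-values from 0.132 to 0.240 (edgeR). In replicate 1 of WT cells, one of the libraries that stand apart, they lay 0.92, -0.21, -0.50 and -0.24 log2 units from the mean of the other replicates. The differences from vector without both outlying libraries were 0.01, -0.09, -0.12 and -0.10, and none of the 4 was called (edgeR). Without both outlying libraries *ZFAND2A* alone was called in this comparison (-0.23, adjusted p = 0.0396, edgeR), against 2.96% of all tested genes. In that fit *ZFAND2A* differed from vector by -0.19 in SxxS and -0.14 in D162R R234D cells. Neither was called (adjusted p of 0.148 and 0.529, edgeR). Without WT arsenite replicate 3, *GABARAPL1* was called in WT cells, as were 1313 of the 22486 tested genes.

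Whether the response itself differed among lines was tested as the interaction of line with treatment. For arsenite, 0 of the 9 genes passed in edgeR or in DESeq2. *NBR1* was the 1 gene with an unadjusted p under 0.05 (edgeR adjusted p = 0.728). For hydrogen peroxide, 0 passed in either tool and 0 had an unadjusted p under 0.05. Over all tested genes, 0 were called for arsenite and 0.685% for hydrogen peroxide. Without both outlying libraries, 0.205% of all tested genes were called for arsenite and 1.51% for hydrogen peroxide. In that fit the adjusted p of *NBR1* for arsenite was 0.0606 (edgeR).

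Levels of different genes were set side by side as CPM per kilobase of the length given in the count table. For each of the 9 genes this length equals that of all its annotated exons merged. It can exceed the length of the main transcript, and the order of genes depends on it. In untreated cells (mean ± SD, n = 12 libraries), *UBB* stood highest at 1077 ± 73.7, followed by *VCP* at 57.5 ± 2.46. *MAP1LC3B* (18.5 ± 0.624) and *SQSTM1* (18.4 ± 0.816) came next, and their ranges overlapped. Then followed *ZFAND5* (13.2 ± 0.352), *NBR1* (10.3 ± 0.470), *ZFAND2B* (5.61 ± 0.642), *GABARAPL1* (4.29 ± 0.138) and *ZFAND2A* (3.38 ± 0.241), none of which overlapped a neighbour. With arsenite *ZFAND2A* moved from the last place to the third, at 51.0 ± 7.96, below *VCP* (79.4 ± 2.42) and above *SQSTM1* (32.4 ± 2.24). *ZFAND5* (24.9 ± 1.65) and *MAP1LC3B* (24.4 ± 1.24) then overlapped. *GABARAPL1* rose to 11.6 ± 0.884 and overlapped *NBR1* (11.4 ± 1.24). *ZFAND2B* was last at 8.89 ± 2.13, and its range overlapped both of these. The overlap rested on WT arsenite replicate 1. With both outlying libraries left out, *ZFAND2B* spanned 7.79 to 8.83, below *GABARAPL1* (10.6 to 12.7) and *NBR1* (10.9 to 12.3).

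**Figure D3:**
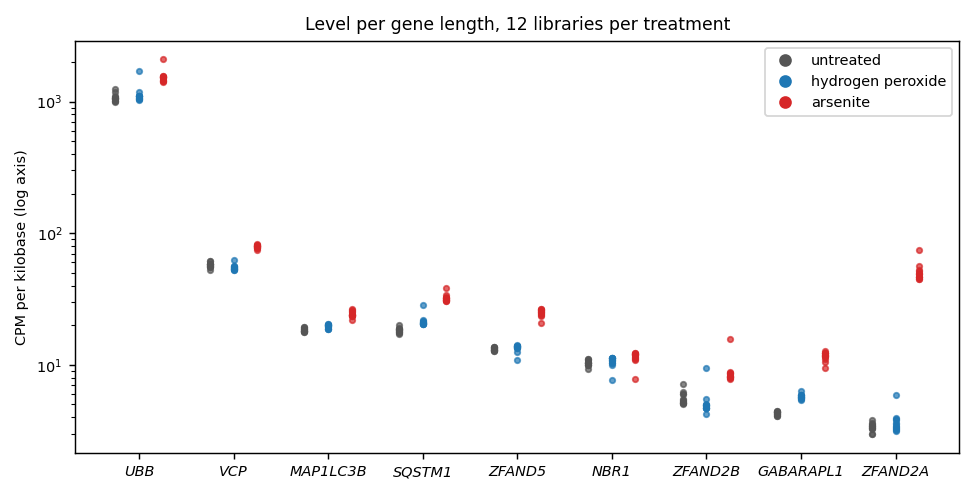
Level of each gene in CPM per kilobase (log axis) in 12 libraries per treatment, with genes ordered by their untreated mean. Each point is a library. *ZFAND2A* moves from the lowest place (3.38) to 51.0 with arsenite, whereas the other genes keep within 3-fold of their untreated level.

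The makeup of the ZFAND and ATG8 families was measured as each gene's share of the family's summed CPM per kilobase. In untreated cells *ZFAND2A* made up 7.37% ± 0.550 of the ZFAND family (SD, n = 12), and with arsenite 42.8% (range 40.4% to 53.0%). *ZFAND5*, the leading member before treatment, went from 28.9% ± 0.890 to 21.1% ± 2.07. *ZFAND2A* held 7.98% ± 1.41 with hydrogen peroxide. In the ATG8 family *GABARAPL1* went from 4.39% ± 0.201 to 5.61% ± 0.344 with hydrogen peroxide and to 9.78% ± 1.17 with arsenite, while *MAP1LC3B* held 18.9% ± 0.736 untreated and 20.5% ± 1.75 with arsenite.

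**Figure D4:**
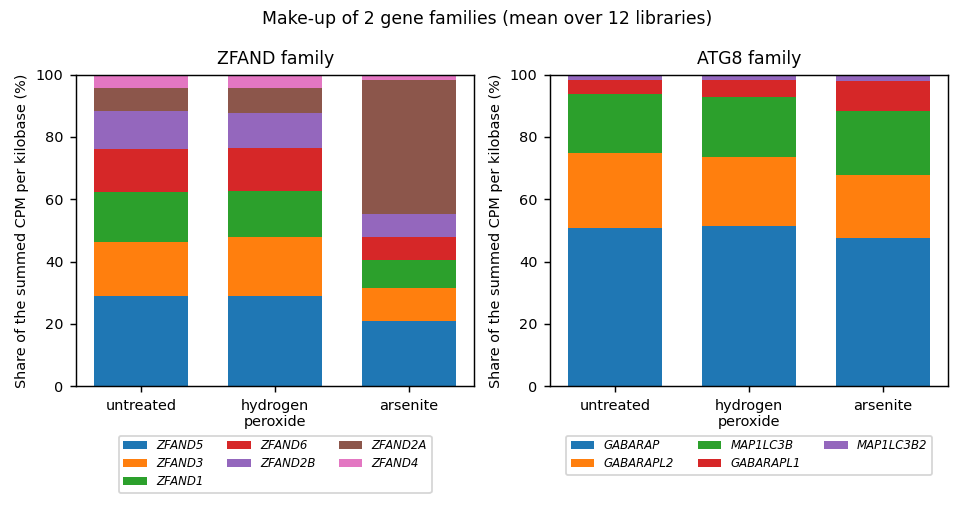
Share (%) of the summed CPM per kilobase of each family held by each gene, as the mean over 12 libraries per treatment. *ZFAND2A* grows from 7.37% to 42.8% of the ZFAND family with arsenite, and *GABARAPL1* from 4.39% to 9.78% of the ATG8 family.

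Related genes were counted in lists around each role. Of 7 genes for ubiquitin activation and shuttling to the proteasome, 2 rose, 3 fell and 2 were not called with arsenite (median -0.10). The shuttle factor gene *UBQLN1* (0.29) and *UBA1* (0.10), which encodes the main ubiquitin-activating enzyme, rose, whereas the shuttle factor genes *DDI2* (-1.14) and *UBQLN2* (-1.04) fell. In the same list 0 rose and 1, *UBA1*, fell with hydrogen peroxide (-0.13).

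Arsenite raised 6 of 7 ZFAND genes (median 0.62), and *ZFAND4*, named after its value was seen, was not called (0.11). With hydrogen peroxide *ZFAND3* rose (0.13), *ZFAND1* fell (-0.13) and 5 were not called. Among 17 autophagy receptor genes, 6 rose, 6 fell and 5 were not called with arsenite (median 0.01). The largest rise in this list was that of *SQSTM1*, followed by *OPTN* (0.41), a receptor used in mitophagy. *WDFY3* (-0.83), a large adaptor for aggregates, and *TOLLIP* (-0.62) fell most. Hydrogen peroxide raised *SQSTM1* and *OPTN* (0.13) and lowered 0 of the 17, with 15 not called.

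Of 7 ATG8 family genes 5 were tested, *MAP1LC3A* and *MAP1LC3C* having too few counts. Arsenite raised 4 of the 5 (median 0.40), including *MAP1LC3B2* (0.43), and *GABARAPL2*, named after its value was seen, was not called (0.01). Hydrogen peroxide raised 2 of the 5, *GABARAPL1* and *MAP1LC3B*. The enzymes that process and couple ATG8 proteins changed in both directions with arsenite, with 6 of 10 higher, 3 lower and 1 not called (median 0.17). *ATG5* (0.44) and *ATG4B* (0.36) rose most, and *ATG16L1* (-0.64) and *ATG4A* (-0.33) fell most. With hydrogen peroxide 0 of the 10 were called.

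Of 15 genes for the start of autophagosome formation, 7 rose, 7 fell and 1 was not called with arsenite (median 0.07). *UVRAG* (0.93), *ATG101* (0.77), *PIK3R4* (-0.91) and *ATG2B* (-0.89) marked the extremes. With hydrogen peroxide *ULK1*, the initiating kinase gene, rose (0.12) and *ATG2A* fell (-0.12). Of 24 adaptor and cofactor genes of VCP, 14 rose, 9 fell and 1 was not called with arsenite (median 0.17). *UBXN1* (0.56) and *FAF1* (0.44), which encode adaptors with a UBX domain, rose most. The deubiquitinase genes *VCPIP1* (-1.89) and *YOD1* (-1.12) fell most. Hydrogen peroxide raised 0 of the 24 and lowered 1, *NGLY1* (-0.09). The calls in each list can be read against the 37.4% of tested genes that arsenite raised and the 31.5% that it lowered, and the 6.78% and 5.3% for hydrogen peroxide. The lists, too, were chosen with earlier results of these data known.

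**Figure D5:**
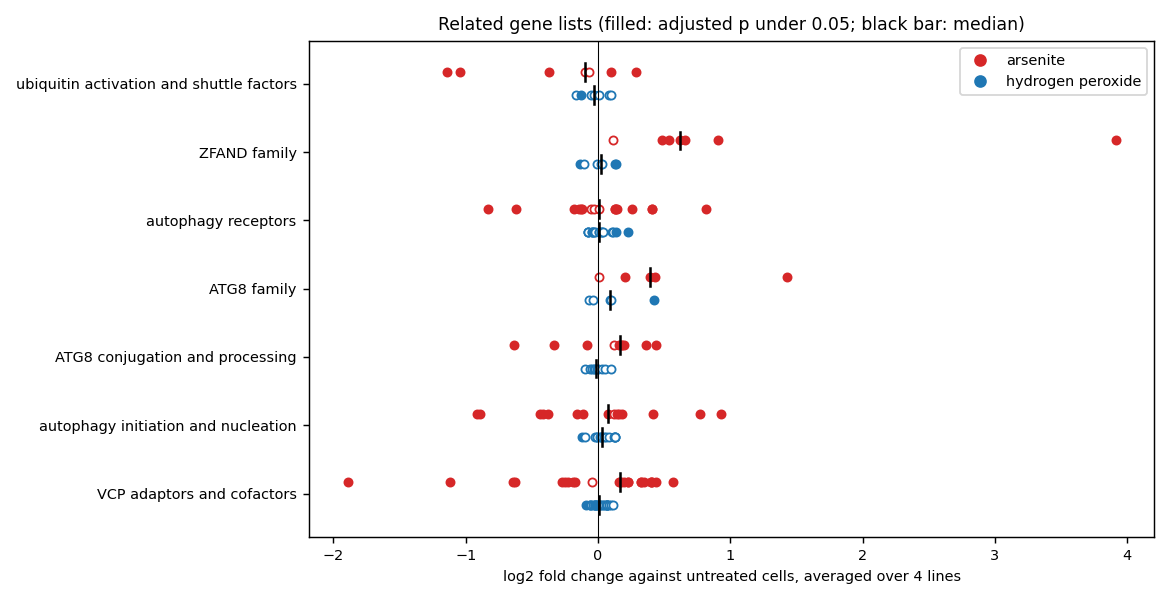
Log2 fold change of each gene of the 7 related lists, averaged over the 4 lines, with arsenite and hydrogen peroxide. Each point is a gene, filled where the adjusted p is under 0.05, and black bars are list medians. The ZFAND and ATG8 lists lie to the right of 0 with arsenite, and the other lists spread to both sides.

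The genes whose pattern over the 36 libraries was most like each of the 9 were sought among 10237 other genes with a mean of at least 10 CPM, by Pearson's r of log2 CPM. The points share their libraries and treatments, so r is a description. For *ZFAND2A* these were *SNHG15* and *SNHG17*, host genes of small nucleolar RNAs (r = 0.998 and 0.997). *GABARAPL1* was followed most closely by *HMOX1*, the heme oxygenase gene (r = 0.988), and *BRD2* (0.987). *ZFAND5* was nearest to *FXR1* and *ETF1* (r = 0.995 each), and *VCP* to *PSMC2*, which encodes a subunit of the proteasome's ATPase ring (0.983), and *SLC25A25* (0.981). *MAP1LC3B* was nearest to *GARS1* (0.972) and *ASNS* (0.966). *ZFAND2B* was nearest to *MIIP* (0.978) and *AUP1* (0.975), and *NBR1* to *SCAF8* (0.956) and *STIL* (0.953). For *UBB* the nearest was ENSG00000265401 (0.997), followed by *HTRA2* (0.988), and for *SQSTM1* it was *MRNIP* (0.993), followed by *EIF1* (0.988). The nearest gene of *UBB* and that of *SQSTM1* each overlap it on the opposite strand, and how much of the likeness comes from shared reads was not tested. Among the 9 genes themselves, r ran from 0.707 to 0.972 over the pairs without *NBR1* and from -0.189 to 0.512 over those with it.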

How the data were processed

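Paired-end reads of DNBseq mRNA libraries, strand-specific per the labels, were aligned by the authors to the GRCh38 primary assembly with qAlign (QuasR). They deposited unnormalized counts of reads for each gene, and the deposited table also gives a length per gene, a value of another kind that was used here to set levels of different genes side by side. The annotation release, the use of strand, reads on several genes and the counting of mates are not given in the sources used here. Of 61587 identifiers, 61415 matched GENCODE 44 on GRCh38, which gave symbols, positions and overlaps. All columns of values were matched to a sample.

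Following the study, a gene had to reach 10 counts summed over the 3 vector libraries without treatment. The tools were R 4.3.3, limma 3.58.1 and edgeR 4.0.16. All 36 libraries entered 1 fit with a mean for each group, TMM factors, robust quasi-likelihood dispersions and Benjamini-Hochberg adjustment over 22486 genes. The biological coefficient of variation was 12.4%. CPM are on TMM-scaled library sizes, and SDs cover replicates. DESeq2 1.42.0, other scalings and filters, a replicate block, halved counts and leaving out libraries were tried as alternatives. The code was tested on simulated data.

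The 9 genes and the lists were chosen with earlier results of these data known. Genes named besides these were *TXNL1*, cell type markers, genes that share exon bases, list members singled out after their values were seen, the called genes with the largest rises and falls of each list, near-identical copies, and for each of the 9 the 2 genes with the highest correlation. Between replicates of a group, the chi-square of the counts divided by its degrees of freedom was 3.31 to 342.7, so no library was a duplicate of another in its group. Some genes of the related lists are not reported here and were left out of the lists' counts.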

Additional observations from a re-analysis of the deposited data

How the results depend on the processing

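With arsenite averaged over the lines, 8 of the 9 genes kept their call under every alternative, and *NBR1* lost it with total counts in place of composition factors (0.10, adjusted p = 0.173, edgeR), without a filter (0.11, adjusted p = 0.0766) and without D162R R234D untreated replicate 3 (0.11, adjusted p = 0.0588). Its value in WT cells turned from -0.14 to 0.0040 without WT arsenite replicate 1 (range without 1 library -0.23 to 0.0040). Calls of *ZFAND2B* within the vector and D162R R234D lines were lost in most fits without 1 library, with DESeq2's size factors and without a filter, but not without both outlying libraries (0.47 and 0.48, adjusted p of 9.09e-06 and 6.59e-06, edgeR). Without 1 library, arsenite called 7 genes in vector, 8 in WT, 7 to 8 in D162R R234D and 7 to 8 in SxxS cells, and 8 to 9 averaged, and hydrogen peroxide called 1, 1 to 3, 1 and 1 in these lines and 3 to 4 averaged. Arsenite against hydrogen peroxide called 8 to 9. Shares of all tested genes in these fits are not reported here. The counts therefore show only how calls of the 9 genes depend on single libraries.

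Without both outlying WT libraries, the number called with hydrogen peroxide was 2 in vector, 2 in D162R R234D, 4 in SxxS cells and 6 averaged. Of all tested genes, 9.87%, 10.4%, 6.56% and 28.6% were then called. When the fit held no other groups than those compared, 4 genes were called in vector, 0 in WT and 4 in SxxS cells. Those fits called 2808, 1 and 1621 of all 22486 tested genes. The number was 1 in WT cells without WT hydrogen peroxide replicate 2, where 682 of all tested genes were called. WT against vector with arsenite called 1 gene without both outlying libraries (2.96% of all tested genes) and 0 to 1 without 1 library. The cause of these changes was not tested. The replicate number as a block gave 7 genes in vector and 8 in D162R R234D cells with arsenite and left the other counts as they were. The shares of all tested genes in that fit are not reported here either. Deviations of libraries with the same number correlated from -0.914 to 0.872 (median 0.03), and those with different numbers from -0.916 to 0.942 (median -0.01). These values gave no sign that the numbers pair the libraries, and pairing within some groups was not tested.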
